A study of Mus musculus with 10 samples.

Results

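The clustered protocadherins are a family of neuronal cell surface adhesion proteins whose genes lie side by side in an alpha, a beta and a gamma cluster. They were taken here by gene symbol: every gene whose symbol reads Pcdha, Pcdhb, Pcdhga, Pcdhgb or Pcdhgc followed by a number, together with Pcdhac1 and Pcdhac2. This gave 58 of the 48526 genes in the expression table, 14 in the alpha cluster, 22 in the beta cluster and 22 in the gamma cluster. The rule reads the symbol alone.

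The samples were dentate gyri of 10 C57Bl/6 mice, 8 weeks of age, dissected from unfixed brain. Adeno-associated virus of serotype 9 had been injected on both sides, 1 µl of solution each, carrying GFP in 5 mice and Sox11, a transcription factor of the SoxC group, in the other 5. No promoter for either transgene and no interval between injection and dissection are stated in the sources used here, and all libraries come from whole dissected tissue, transduced and untransduced cells together. Both groups received virus, so uninjected tissue is not part of the comparison. RNA-seq libraries were made from 100 ng of total RNA with a stranded poly(A) kit, and each library stands for 1 mouse. Library names follow the table's column headers (GFP 1, 3, 4, 5 and 6; Sox11 1, 2, 3, 6 and 7), whose numbers differ from those in the sample titles.

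Each protocadherin of these clusters is an adhesion receptor with an extracellular part built of cadherin repeats, which binds the same isoform on a facing membrane. A neuron uses a small, largely random set of the alternate isoforms, chosen at the promoter through DNA demethylation, CTCF binding and looping by cohesin, while the C-type isoforms Pcdhac1, Pcdhac2, Pcdhgc3, Pcdhgc4 and Pcdhgc5 are regulated apart from this choice. In the mouse brain the combinations serve self-recognition of dendrites and axons, the tiling and wiring of arbors, and the survival of some neurons.

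All 58 genes lie on the plus strand of mouse chromosome 18 between 36930184 and 37841873 (GRCm38, GENCODE M21), a stretch of 911.689 kb. In the annotation each alpha and gamma gene joins exons of its own to 3′ exons that the whole cluster shares, 2860 bases in most alpha and 2119 bases in most gamma genes, whereas a beta gene is a single exon. Outside Pcdha4, bases that belong to no other gene on the strand made up 40.1 to 61.1% of the exonic bases in the alpha cluster, 33.2 to 68.5% in the gamma cluster and 90.3 to 100% in the beta cluster. These are called own bases below, and levels are compared between genes only per kb of own bases. How the authors' counting treated reads in shared exons, and whether it used the strand, is not given in the sources used here. Pcdha4, with 5274 shared bases, held at most 1.52 normalized counts in any library. Whether part of an alpha or gamma count belongs to a neighbour in the cluster was not tested. Related exons also resemble each other: of all 31-base words on own bases, 61.1 to 100% in the alpha, 77.5 to 100% in the beta and 76.5 to 100% in the gamma genes occurred in no other gene.

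Recovered reads per library ranged from 45100154 to 68769808. Sox11 itself, on chromosome 12, averaged 1429 ± 115 normalized counts with GFP and 12559 ± 4449 with Sox11 virus (SD, 5 libraries per group). Its log2 fold change was 3.08, and no library overlapped the other group (two-sided exact permutation p = 0.00794, the smallest that 252 assignments allow). Granule neuron markers were present in every library, summed to 50491 to 75406 normalized counts in GFP and 54386 to 75281 in Sox11 libraries, and none of the 6 was at 0. One control library stood apart: GFP 3 held 381013 normalized counts of 8 choroid plexus markers, against at most 3373 in the other GFP and 2566 in the Sox11 libraries.

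With Sox11, members of the family were higher or undecided, and none passed the threshold in the lower direction. Of 55 members whose mean reached 10 normalized counts, 17 rose, 0 fell and 38 did not pass (limma on log2 of the normalized count plus 1, Benjamini-Hochberg adjusted p below 0.05 over 17007 genes). That is 30.9% of the members called higher against 9.65% of all genes, and 0% called lower against 9.36%. By another tool, edgeR on recovered reads called 18 higher and 0 lower (all genes 10.3% and 8.96%), and DESeq2 called 22 higher and 2 lower (all genes 12.1% and 12.0%), the latter being the C-type genes Pcdhac2 and Pcdhgc5. At an unadjusted p below 0.05 in limma, 2 members were lower, the same pair. The share of all genes at that unadjusted cutoff was not counted. The log2 fold change was above 0 in 44 of 55 members, and in 8256 of all 17007 genes. Its median was 0.24 over the members, beside a median of -0.006 over all genes. In bulk tissue, more cells that use a gene and more RNA of it per cell cannot be told apart.

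By cluster, 5 of 13 tested alpha genes rose (38.5%), 10 of 21 beta genes (47.6%) and 2 of 21 gamma genes (9.52%), where 9.65% of all genes were called higher. The gamma count is thus near the share over all genes. The median log2 fold change was 0.40 in the alpha, 0.35 in the beta and 0.10 in the gamma cluster, and 0.60 over the alternate alpha genes, those numbered 1 to 12. All Sox11 libraries lay above all GFP libraries for 13 of 55 members, 3 alpha, 8 beta and 2 gamma, and below them for 0, where 8.63% and 7.29% of all genes did so. These counts describe the clusters, whose difference was not tested.

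**Figure D1:**
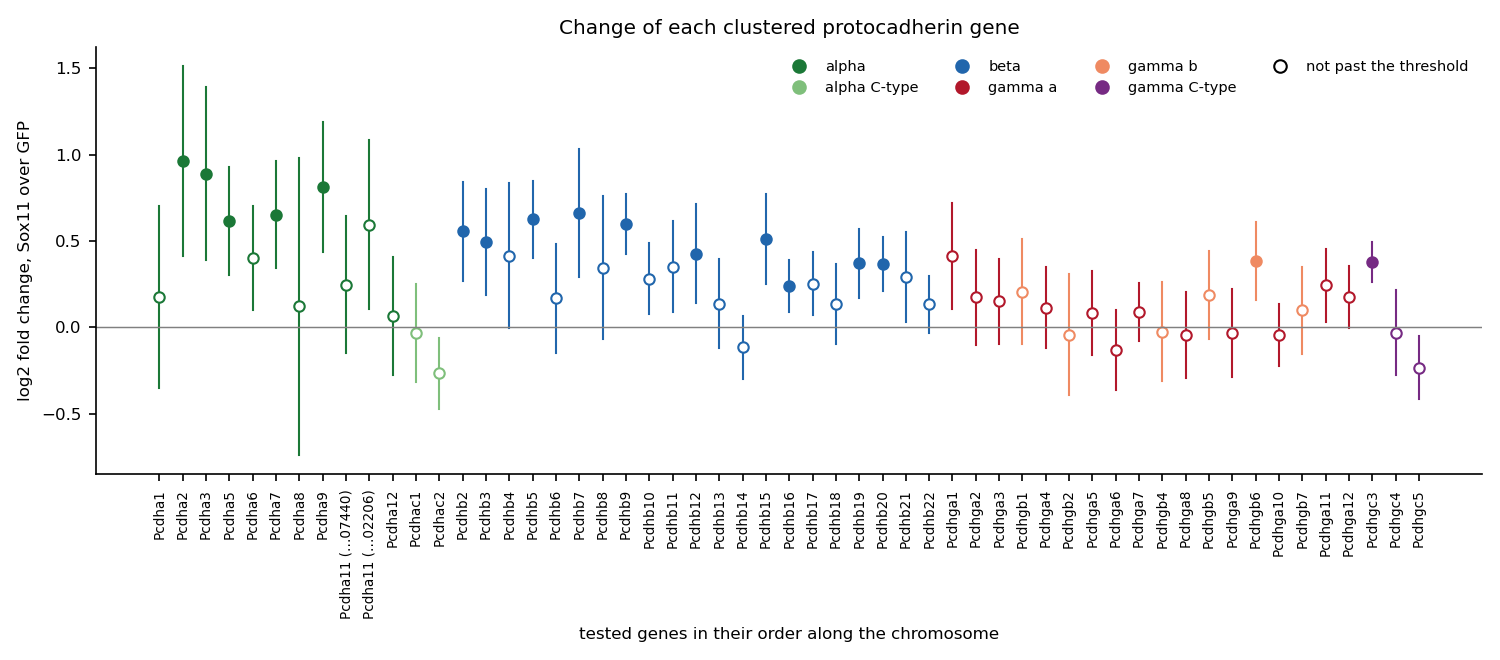
Log2 fold change of the 55 tested genes, Sox11 over GFP, in their order along the chromosome, with 95% confidence intervals from limma; filled points passed the adjusted p threshold of 0.05 and open points did not. Filled points sit in the alpha and beta clusters apart from Pcdhgb6 and Pcdhgc3, and all 17 lie above 0, while Pcdhac2 and Pcdhgc5 at the ends of the alpha and gamma clusters lie at -0.26 and -0.23, open.

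Levels differed widely between genes of the family. Per kb of own bases, C-type genes led in GFP tissue: Pcdhgc3 at 1317, Pcdhgc5 at 1088 and Pcdhac2 at 725 mean normalized counts per kb. Alternate genes came next, with Pcdhga11 at 519, Pcdhga3 at 338 and Pcdhb9 at 328 per kb. Not every C-type gene was high: Pcdhgc4 stood at 135 and Pcdhac1 at 93.6 per kb, within the range of the alternate genes. The tested alternate alpha genes ran from 8.63 per kb for Pcdha8 to 142 for Pcdha12. The tested beta genes, from 35.8 for Pcdhb6 to 328 for Pcdhb9, overlapped that range.

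In all, 3 members stayed below the mean of 10 normalized counts and were not tested. Pcdhb1, just below at 7.11, is the beta gene at the upstream end of its cluster and held 4.93 ± 2.44 normalized counts in GFP and 9.29 ± 4.87 in Sox11 libraries, with overlapping values. Pcdhgb8, a polymorphic pseudogene, averaged 1.11. Pcdha4 was listed at 0 in all GFP libraries and in 4 of 5 Sox11 libraries, and at 1.52 in Sox11 3. Its annotation bears on that value, since only 8.56% of its exonic bases, 494, belong to no other gene. The rest are shared, with the other alpha genes or with a read-through gene, Gm42416, which was at 0 in every library. Just above the minimum stood Pcdha8 at a mean of 23.4, with a log2 fold change of 0.12 (SE 0.39).

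The alternate alpha genes encode receptors that join a variable adhesive part to the shared alpha cytoplasmic domain, which binds Fyn and the kinases FAK and Pyk2. The 5 that rose, Pcdha2, Pcdha3, Pcdha5, Pcdha7 and Pcdha9, had log2 fold changes of 0.62 to 0.96. All 11 tested alternate alpha genes had a value above 0, as had 8256 of all 17007 genes. Pcdha9 (ENSMUSG00000103770) held 211, 208, 355, 282 and 262 normalized counts in GFP 1, 3, 4, 5 and 6 and 378, 365, 474, 504 and 593 in Sox11 1, 2, 3, 6 and 7. Every Sox11 library was above every GFP library, though Sox11 1 and 2 only just cleared GFP 4. The log2 fold change was 0.81 (SE 0.17, adjusted p = 0.00717, limma).

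Pcdha2 (ENSMUSG00000104148) held 114, 124, 99.0, 216 and 155 normalized counts in GFP and 293, 171, 338, 218 and 363 in Sox11 libraries, in the same order. Sox11 2 lay within the GFP range, below GFP 5, and the other 4 Sox11 libraries were higher than any control. Its log2 fold change was the largest of the family at 0.96 (SE 0.25, adjusted p = 0.0208, limma), and the call was lost, at an adjusted p of up to 0.0529, on leaving out GFP 4 or Sox11 3. Pcdha3 (ENSMUSG00000102312) held 142, 73.7, 145, 136 and 155 normalized counts in GFP and 169, 193, 284, 248 and 312 in Sox11 libraries. Here GFP 3 was far below the other controls and the groups did not overlap (log2 fold change 0.89, SE 0.23, adjusted p = 0.0188, limma). Without GFP 3 it still passed, as it did without any other single library, at an adjusted p of at most 0.0488.

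Pcdha7 rose from 190 ± 22.2 to 303 ± 62.4 normalized counts, with no overlap, and Pcdha5 from 216 ± 33.5 to 332 ± 58.7, where the lowest Sox11 and the highest GFP library met at 257. Pcdha12, the alternate alpha gene of highest level per kb of own bases in GFP libraries, was 352 ± 18.5 in GFP and 379 ± 97.9 in Sox11 libraries and did not pass. Its Sox11 values spread from 275 to 508, on both sides of the GFP range. Pcdha6 was close to the threshold at a log2 fold change of 0.40 (adjusted p = 0.0635, limma).

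A pair of IDs in the annotation bears the symbol Pcdha11. The one starting at 37005203 (ENSMUSG00000007440), where RefSeq places Pcdha10, had a log2 fold change of 0.25, and the one starting at 37010712 (ENSMUSG00000102206) 0.60 with an adjusted p of 0.0875 by limma. For the latter, 44.3% of exonic bases lie opposite a gene on the other strand.

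The beta genes lack a shared cytoplasmic domain. In this cluster 20 of 21 tested genes had a log2 fold change above 0, Pcdhb14 at -0.11 being the exception. Of all 17007 genes, 8256 had a value above 0. Those that rose were Pcdhb2, Pcdhb3, Pcdhb5, Pcdhb7, Pcdhb9, Pcdhb12, Pcdhb15, Pcdhb16, Pcdhb19 and Pcdhb20, by 0.24 to 0.66. Pcdhb9 (ENSMUSG00000051242), the most abundant beta gene, held 973, 1046, 1076, 930 and 993 normalized counts in GFP and 1364, 1346, 1513, 1633 and 1782 in Sox11 libraries. A wide gap separated the groups, and its adjusted p of 0.000577 (limma; log2 fold change 0.60, SE 0.08) was the lowest of the family.

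Pcdhb5 (ENSMUSG00000063687) held 315, 318, 372, 281 and 309 normalized counts in GFP and 507, 401, 482, 527 and 551 in Sox11 libraries. The lowest Sox11 library, number 2, was above every control (log2 fold change 0.63, SE 0.10, adjusted p = 0.00165, limma). Pcdhb20 (ENSMUSG00000046191) held 531, 494, 524, 504 and 517 normalized counts in GFP, against 616, 620, 621, 765 and 704 in Sox11 libraries. No control reached the lowest Sox11 library (log2 fold change 0.37, SE 0.07, adjusted p = 0.00468, limma).

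Pcdhb7 (ENSMUSG00000045062) held 555, 661, 820, 899 and 656 normalized counts in GFP and 1108, 845, 983, 1341 and 1435 in Sox11 libraries. It had the largest log2 fold change among the beta genes, 0.66 (SE 0.17, adjusted p = 0.0190, limma), while Sox11 2 lay below GFP 5. Pcdhb2, Pcdhb15 and Pcdhb19 rose by 0.56, 0.51 and 0.37 on the log2 scale and stayed called whichever library was left out. Pcdhb3, Pcdhb12 and Pcdhb16 were less firm: their adjusted p reached 0.0639, 0.0886 and 0.0720 when single libraries were left out, and they stayed called in 3, 2 and 3 of 10 such fits. For Pcdhb12, 63.5% of exonic bases lie opposite a gene on the other strand, and Sox11 3 at 816 stood well above the other Sox11 libraries at 527 to 575.

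Pcdhb17, among the 3 beta genes of highest mean count, was 794 ± 102 in GFP and 941 ± 51.8 in Sox11 libraries and stayed just outside the threshold (adjusted p = 0.0538, limma). In Pcdhb11 the groups did not overlap, 295 to 362 against 375 to 574 normalized counts, yet its adjusted p was 0.0611 by limma, with Sox11 7 far above the others. By position, the 10 tested genes among Pcdhb1 to Pcdhb11 had a median log2 fold change of 0.45 and the 11 genes from Pcdhb12 to Pcdhb22 of 0.25. Each stretch held 5 called genes, and the difference was not tested. The 11 tested beta genes that did not pass had log2 fold changes from -0.11 to 0.42.

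**Figure D2:**
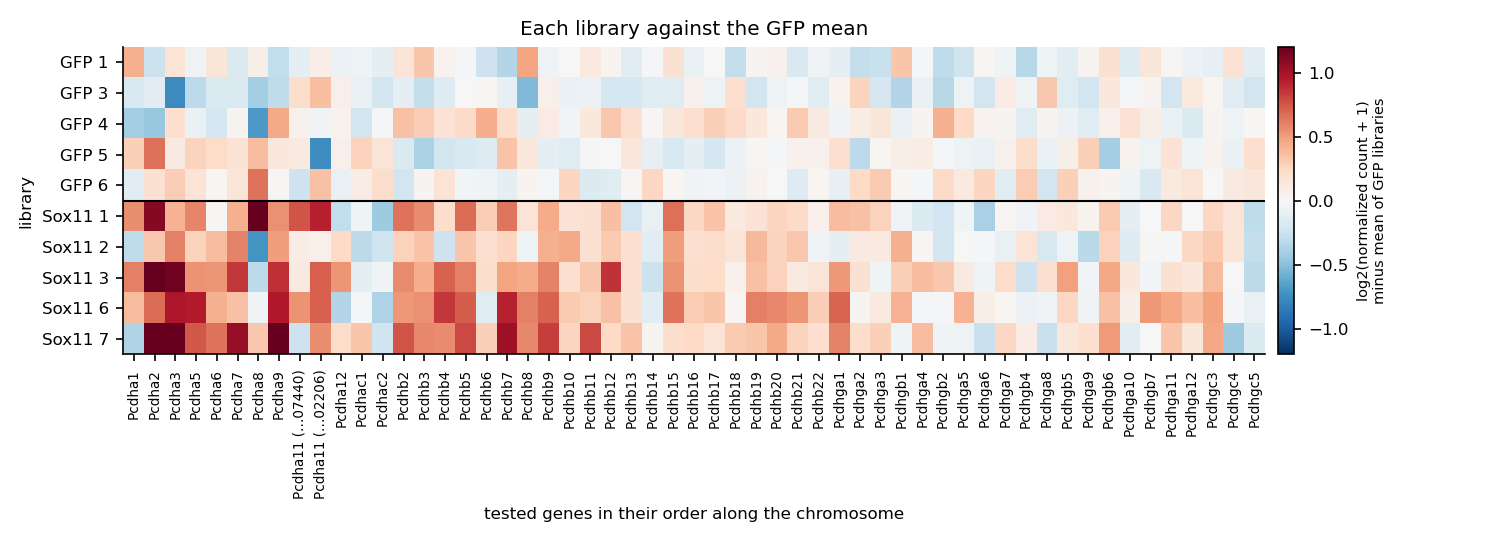
Each library's log2(normalized count + 1) minus the mean of the GFP libraries, for the 55 tested genes in chromosome order (columns) and the 10 libraries (rows), red above and blue below the GFP mean, with the colour scale capped at the ends of its bar. The Sox11 rows are mostly red from Pcdha2 to Pcdhb22 and paler over the gamma genes, and Pcdhac2 and Pcdhgc5 are blue in most of them.

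The alternate gamma genes share the gamma cytoplasmic domain and fall into an a and a b subclass. Among 12 gamma a genes 0 passed in either direction in limma, against a background of 9.65% higher and 9.36% lower, and their log2 fold changes ran from -0.13 to 0.41. At an unadjusted p below 0.05 in limma, 2 were higher and 0 lower, with no share of all genes counted at that cutoff. By edgeR and by DESeq2, Pcdhga1 alone of these passed as higher (adjusted p = 0.0470 and 0.0207; limma 0.0613), at 288 ± 26.4 and 390 ± 77.4 normalized counts in GFP and Sox11 libraries. The most abundant gamma a gene, Pcdhga11, was 1370 ± 149 and 1625 ± 200 (adjusted p = 0.104, limma). It passed as higher with the division of column numbers described below as a covariate (adjusted p = 0.0189), within numbers 4 and above (0.0410) and without Sox11 2 (0.0393), all by limma. Pcdhga3 was 879 ± 147 and 969 ± 93.3, and Pcdhga12 was 799 ± 74.7 and 904 ± 86.6, each with overlapping groups.

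Of 6 tested gamma b genes, Pcdhgb6 rose. Pcdhgb6 (ENSMUSG00000103088) held 764, 736, 702, 510 and 687 normalized counts in GFP and 839, 815, 932, 858 and 959 in Sox11 libraries. GFP 5 was low and the groups did not overlap (log2 fold change 0.38, SE 0.10, adjusted p = 0.0235, limma), but leaving out Sox11 3 or Sox11 7 lost the call, with an adjusted p of up to 0.0564. Pcdhgb1 and Pcdhgb2, next in abundance, were 436 ± 74.5 against 503 ± 81.0 and 465 ± 109 against 447 ± 73.7. Neither passed, and the 5 gamma b genes that did not pass ranged from -0.04 to 0.21 in log2 fold change.

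The 5 C-type genes did not move as one. Pcdhgc3, whose product binds Axin1 and restrains Wnt signalling in cultured cells, was the member with the smallest error. Pcdhgc3 (ENSMUSG00000102918) held 4164, 4516, 4559, 4568 and 4453 normalized counts in GFP and 5299, 5537, 5796, 6210 and 6130 in Sox11 libraries. Every Sox11 library was well above all controls (log2 fold change 0.38, SE 0.05, 95% interval 0.26 to 0.49, adjusted p = 0.000664, limma), and the call held whichever library was left out. On the opposite strand, BC037039 overlaps 28.4% of its exonic bases and rose from 45.0 ± 11.6 to 90.6 ± 12.2 normalized counts. The part of BC037039 in the count of Pcdhgc3 was not tested.

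Pcdhgc5, whose product binds GABA-A receptors, and Pcdhac2, which serves the spacing of serotonergic axons, lay on the other side of 0 without passing. Pcdhgc5 (ENSMUSG00000102543) held 4524, 4286, 5044, 5739 and 5475 normalized counts in GFP and 4030, 4097, 4005, 4678 and 4439 in Sox11 libraries. Sox11 1, 2 and 3 were below all controls, and Sox11 6 and 7 lay within the control range (log2 fold change -0.23, SE 0.08, 95% interval -0.41 to -0.05, adjusted p = 0.0727, limma). Pcdhac2 (ENSMUSG00000102697) held 2019, 1868, 2140, 2433 and 2518 normalized counts in GFP and 1622, 1843, 2116, 1688 and 1852 in Sox11 libraries. Sox11 3 was close to GFP 4, and the others were below all controls (log2 fold change -0.26, SE 0.09, 95% interval -0.47 to -0.06, adjusted p = 0.0719, limma).

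These values of the last pair depended on the tool and the libraries. DESeq2 gave adjusted p = 0.0305 for Pcdhgc5 and 0.0395 for Pcdhac2, edgeR 0.0771 and 0.0897. Without GFP 3, the library rich in choroid plexus RNA, both passed as lower in limma. Pcdhgc4, known for its role in the survival of cortical interneurons in mice, was 471 ± 43.5 in GFP and 465 ± 70.7 in Sox11 libraries. Pcdhac1 was 240 ± 32.5 and 235 ± 39.6. For these 2 genes the 95% intervals of the log2 fold change, -0.28 to 0.22 and -0.32 to 0.25, leave room for moderate shifts either way.

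**Figure D3:**
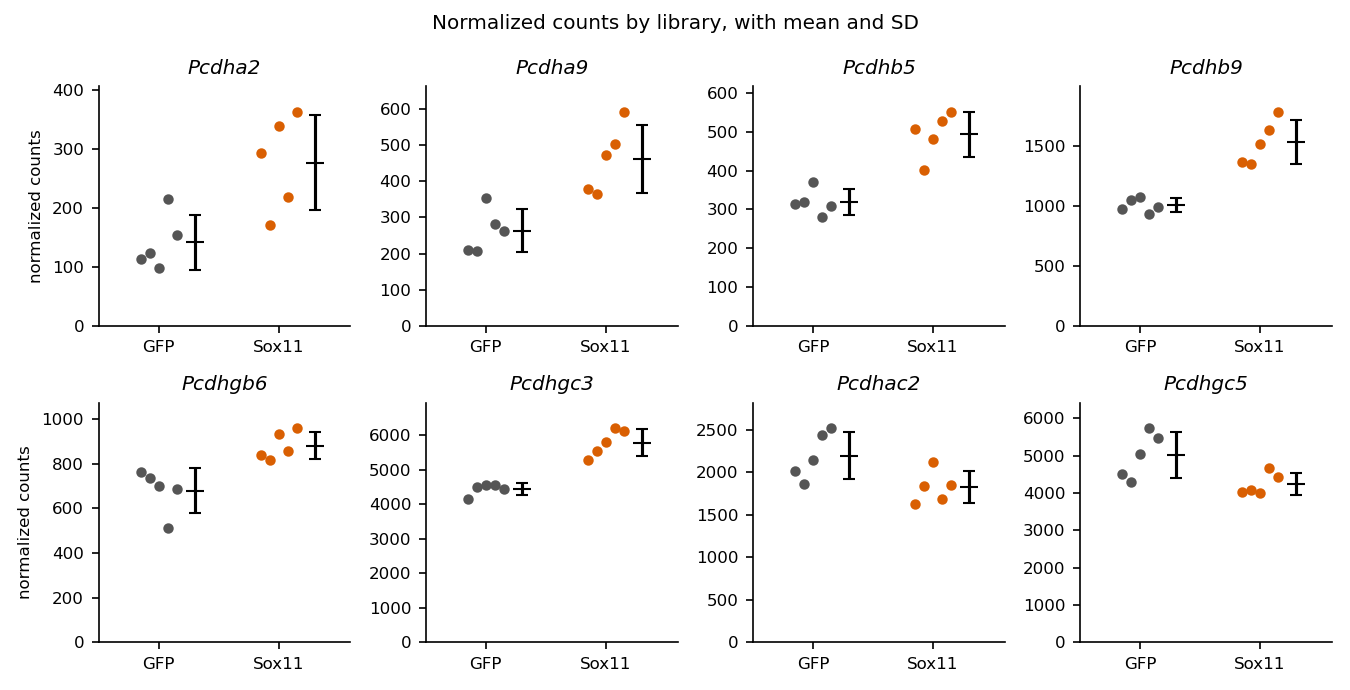
Normalized counts of 8 members by library, GFP in grey and Sox11 in orange, with the mean and SD of 5 libraries beside each group; axes start at 0. Sox11 libraries lie above all controls for Pcdha9, Pcdhb5, Pcdhb9, Pcdhgb6 and Pcdhgc3, overlap from above for Pcdha2, and overlap from below for Pcdhac2 and Pcdhgc5.

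Summed over whole clusters, low genes included, the beta genes held 8523 ± 595 normalized counts in GFP and 10996 ± 818 in Sox11 libraries, a ratio of 1.29 with no overlap. The alpha cluster as a whole held 4193 ± 424 and 4660 ± 481, overlapping, with a log2 ratio of means of 0.15. That sum joins unlike parts: the alternate alpha genes together held 1757 ± 134 and 2600 ± 332 with no overlap (log2 ratio 0.57), while Pcdhac1 and Pcdhac2 together were 2435 ± 298 and 2059 ± 193. The gamma cluster held 20366 ± 1085 and 21876 ± 1189, overlapping (log2 ratio 0.10). Over all 58 genes the sum was 33082 ± 1728 in GFP and 37531 ± 2225 in Sox11 libraries. No library overlapped, though Sox11 2 at 34890 only just cleared GFP 6 at 34546. These sums are descriptions without a test.

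Expressed as shares of the family per kb of own bases, the makeup differed between groups. The C-type genes made up 32.5 to 35.5% in GFP and 29.8 to 31.7% in Sox11 libraries. Beta genes made up 21.2% ± 1.28 and 24.6% ± 0.671, alternate alpha genes 7.10% ± 0.365 and 9.14% ± 0.795, and Pcdhac1 with Pcdhac2 8.20% ± 0.703 and 6.07% ± 0.524. None of these 4 shares overlapped between groups. The gamma cluster, the largest component, was 63.5% ± 0.730 and 60.2% ± 1.19, also without overlap. Shares are tied to one another, since a higher beta share lowers the rest.

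Within the C-type genes, the leading pair stood further apart in Sox11 libraries. Per kb of own bases, the ratio of Pcdhgc3 to Pcdhgc5 was 1.25, 1.44, 1.23, 1.08 and 1.11 in GFP and 1.79, 1.84, 1.97, 1.81 and 1.88 in Sox11 libraries. Pcdhgc3 was thus above Pcdhgc5 in every library, and every Sox11 ratio was higher than every control ratio. Both counts come from the same library, so its scaling cancels in this ratio. It was chosen after the values were seen and carries no test.

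**Figure D4:**
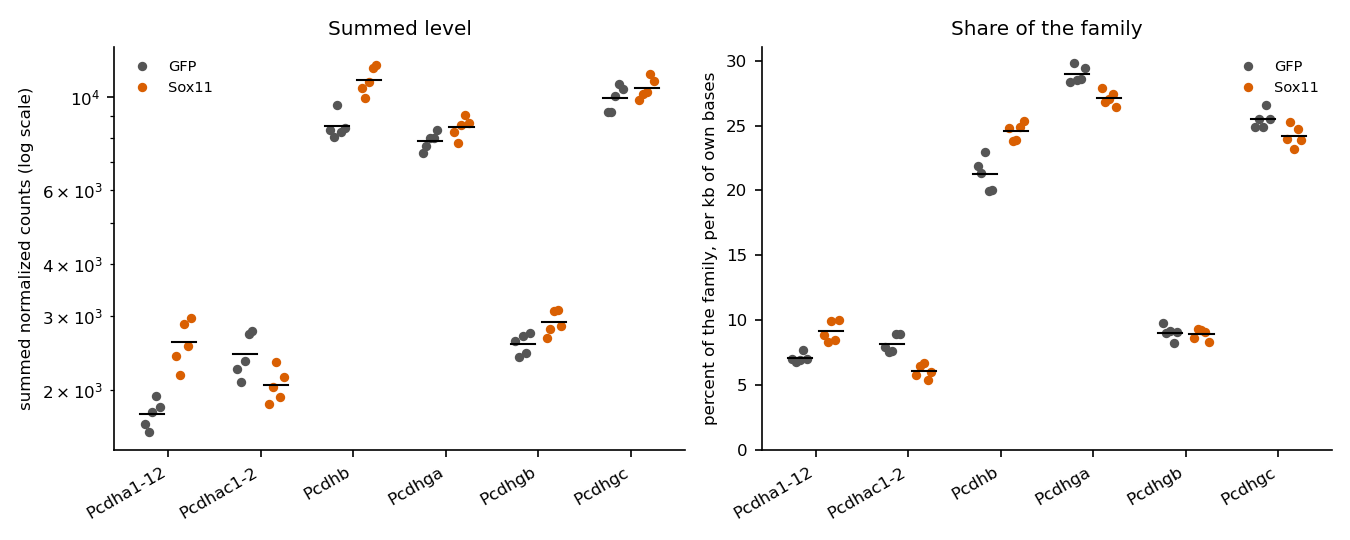
Left, summed normalized counts (log axis) of 6 subclasses by library; right, each subclass as a percentage of the family's normalized counts per kb of own bases; GFP in grey, Sox11 in orange, bars at the means of 5 libraries. The beta and the Pcdha1 to Pcdha12 groups are higher in Sox11 libraries in both panels without overlap, and the share of Pcdhac1 and Pcdhac2 is lower, 6.07% against 8.20%.

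The alternate subclasses also differed in how much control mice varied. The median coefficient of variation among GFP libraries was 22.9% over the alternate alpha genes, 11.8% over the beta genes, 11.6% over the gamma a genes and 15.8% over the gamma b genes. Counting alone gives medians of 8.90%, 5.63%, 4.16% and 5.00%, so the median spread between control mice exceeded that of read sampling in each. The smallest log2 fold changes called were in the beta cluster, Pcdhb16 at 0.24 and Pcdhb20 at 0.37.

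Libraries numbered 1 to 3 and those numbered 4 and above differed from each other in ways that the groups do not explain. Across 17007 genes, deviations from the group mean correlated at 0.0675 to 0.621 between GFP and Sox11 libraries of the same division, and at -0.627 to -0.0237 between divisions. Such deviations cancel out within a group for each gene, so correlations of both signs had to occur, though not split by division. The family was therefore also compared within each division, which was chosen after the data had been seen. All 17 genes that rose had a log2 fold change above 0 in both divisions. Within numbers 1 to 3, with 2 GFP and 3 Sox11 libraries, 5 members passed as higher and 0 as lower, where 3.46% of all genes were higher and 2.49% lower. Within numbers 4 and above, with 3 GFP and 2 Sox11 libraries, 14 passed as higher, 10 of them among the 17, and Pcdhac2 and Pcdhgc5 passed as lower, where 7.27% of all genes were higher and 7.91% lower. With the division as a covariate, 21 passed as higher, among them all 17, and Pcdhgc5 passed as lower, where 12.2% and 11.6% of all genes did so. What the numbers stand for is not given in the sources used here.

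Some marker genes of cell types were also called, where 9.65% of all genes were higher and 9.36% lower. Of 6 immature neuron markers, 3 rose (Dcx, Tubb3 and Stmn1), and the list summed to 18870 to 25721 normalized counts in GFP and 39906 to 53263 in Sox11 libraries, none at 0. Of 8 astrocyte markers, 3 rose (Gfap, Aldh1l1 and Sox9), with sums of 289258 to 370180 and 319317 to 398365. In the other lists, the granule neuron marker C1ql2 and the interneuron marker Gad2 fell, and the microglial C1qb rose, 1 gene in each of 6. The lists for choroid plexus, oligodendrocytes and their precursors, endothelium, CA1 and CA3 pyramidal neurons and serotonin neurons had 0 called. The part of these cell types in the protocadherin values was not tested. Without GFP 3, 15 members were higher and 2 lower, where 9.23% and 9.99% of all genes were. Without Sox11 3, the library with the highest Sox11 level at 20434 normalized counts, 12 were higher and 1, Pcdhac2, lower, where 7.53% and 7.19% of all genes were.

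Among 27 regulators linked to promoter choice of these genes or to silencing of neuronal genes, 6 rose and 0 fell, beside 9.65% and 9.36% of all genes, with a median log2 fold change of -0.001. The 3 of lowest p were Tet1 at 0.57 (785 ± 38.8 to 1171 ± 120 normalized counts), Tet3 at 0.44 (3479 ± 156 to 4715 ± 400) and Ehmt1 at 0.41 (2219 ± 109 to 2951 ± 232). Tet1 and Tet3 are dioxygenases that start the removal of DNA methylation, and Ehmt1 is a histone H3 lysine methyltransferase. Tet2, Trim28 and Rest also rose, at 0.20, 0.23 and 0.41, named after their values were seen. Ctcf, which binds these promoters and their enhancer, was 4564 ± 230 in GFP and 4799 ± 383 in Sox11 libraries, and the cohesin subunit Rad21 was 7392 ± 354 and 7537 ± 708, neither passing.

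Of 20 related adhesion molecules outside the clusters, non-clustered protocadherins and large cadherins, 3 rose and 2 fell, with a median log2 fold change of -0.04. Of all genes, 9.65% were higher and 9.36% lower, so these counts are near that share. Dchs1, a giant cadherin that pairs with Fat4, rose from 1041 ± 110 to 3500 ± 574 normalized counts (log2 fold change 1.74), more than any clustered member. Pcdh7 and Cdhr1 fell by 0.35 and 0.66 on the log2 scale.

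Of 20 partners of the cytoplasmic domains and of protocadherin adhesion, 3 rose and 2 fell, with a median of -0.07, again near the 9.65% and 9.36% of all genes. Marcks, a substrate of protein kinase C that acts on the actin cortex, rose by 0.50 and Fyn, a kinase bound by the alpha domain, by 0.30. Cyfip2 of the WAVE complex fell by 0.28 on the log2 scale. Of the genes for the other kinases bound by the alpha domain, named after their values were seen, Ptk2b (Pyk2) fell by 0.21 and Ptk2 (FAK), at 0.08, did not pass. Among 9 tested genes of shedding and gamma-secretase cleavage, Aph1b rose by 0.28, and the other 8 did not pass, which is near the share over all genes.

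Around the clusters, 65 other genes in the table lie within 500 kb of the family's span, and 33 of them were tested. Of these 5 rose and 1 fell, beside 9.65% and 9.36% of all genes, with a median log2 fold change of 0.04. Inside the span itself 6 other genes were tested and 2 rose, BC037039 (log2 fold change 1.02) and Gm10544 (1.28, from 9.94 ± 2.80 to 28.0 ± 14.9 normalized counts, named after its value was seen). In the flanks 3 of 27 rose, among them Wdr55 at 0.34 and Tmco6 at 0.27, and 1 fell.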

How the data were processed

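RNA-seq of dentate gyrus was analysed in 5 GFP and 5 Sox11 libraries, each from a separate mouse. The authors deposited 1 table of normalized counts, a signal that is not raw counts. Per the submitters' processing notes, reads were handled with STAR 2.5.2a, cutadapt 1.9.1, bcl2fastq 1.8.4, featureCounts 1.5.1 of Subread, DESeq2 1.12.3 and R 3.3.1 on GRCm38; their settings are not given in those notes. All values were whole multiples of 1 read within 0.01 reads in every library, so reads were recovered by division, 45100154 to 68769808 a library. At these depths counting error is small for abundant genes and is given beside the spread.

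The main test was limma 3.58.1 (trend and robust, R 4.3.3) on log2(normalized count + 1), on 17007 genes with a mean of at least 10, with Benjamini-Hochberg adjustment and a threshold of 0.05; fold changes of low genes are understated on this scale. A standard error (SE) is that of the log2 fold change. edgeR 4.0.16 and DESeq2 1.42.0 on recovered reads were alternatives. Tests were checked on simulated data. Columns were assigned to groups by name. Exons came from GENCODE M21, which matched 48058 of 48526 IDs. No sequence is printed. All members and lists were chosen with earlier results of these data known. Named members are those past the threshold, those whose groups do not overlap, the C-type genes, the 3 most abundant of each alternate subclass, and those next to the minimum of 10; from other lists, up to 3 called genes by lowest p, others being marked. Alternatives varied the pseudocount, filter, scaling, tool, threshold, covariate and libraries.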

Additional observations from a re-analysis of the deposited data

Results flagged for a closer look

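In 70 groups of 5 libraries examined for single libraries standing apart (Dixon's criterion, critical value 0.71), 7 did so, where chance gives about 1 in 20. Pcdha3 in GFP 3 was 73.7 normalized counts, below the other GFP libraries at 136 to 155; GFP 3 is also the library rich in choroid plexus markers, and the part of that in the value was not tested. Pcdhb11 in Sox11 7 was 574, above 375 to 413 in the other Sox11 libraries. Pcdhb12 in Sox11 3 was 816, above 527 to 575. Pcdhgc3 in GFP 1 was 4164, below 4453 to 4568 in the other controls. The beta cluster sum in GFP 4 was 9551, above 8029 to 8444, and still below the lowest Sox11 library at 9961. Sox11 itself was 1634 normalized counts in GFP 5, above 1364 to 1399, and 20434 in Sox11 3, above 9803 to 11591.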

How the results depend on the processing

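All 17 members called higher kept a log2 fold change above 0 under every alternative fit. Pseudocounts of 0.5 and 8 gave 17 higher, where 9.65% and 9.66% of all genes were. The absence of a filter gave 16 (all genes 4.73%) and a mean of at least 50 gave 19 (11.2%). TMM scaling gave 18 (9.93%) and limma without trend and robust 17 (9.31%). With edgeR 18 were higher (10.3%) and with DESeq2 22 (12.1%). A threshold of 0.01 gave 6, with no share of all genes counted. Leaving out single libraries gave 12 to 20 higher and 0 to 2 lower, where 7.53 to 9.23% of all genes were higher and 6.91 to 9.99% lower. Members lower, 0 in the main comparison, became 2 with DESeq2 (all genes 12.0%) and 2 at a threshold of 0.1, with no share of all genes counted. They became 2 within column numbers 4 and above (7.91%) and 1 with the column division as covariate (11.6%). Within numbers 1 to 3, 5 were higher, where 3.46% of all genes were. The divisions within column numbers were added after seeing the data. Fewer libraries enter these, and depth limits Pcdha8, Pcdhb1, Pcdhgb8 and Pcdha4 in particular.

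Column numbers 1, 3 and 6 occur in both groups. Over 17007 genes, deviations from the group means of same-numbered libraries correlated at 0.194, 0.0675 and 0.415. Whether the numbers pair the samples cannot be decided from these values, since libraries of unlike number correlated at up to 0.621 (GFP 3 with Sox11 2). With the replicate block over these 6 libraries 0 members were higher, and without the block over the same libraries 6 were (edgeR, DESeq2 not run on them). The block gave 40 higher genes of 17007 in all, and the count without it was 409.

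Over the alpha cluster, the mean of log2 values over members differed by 0.39 between groups, against a log2 ratio of sums of 0.15, since the sum is carried by Pcdhac2. Other sums moved by less than their spread. Among named members, 5 that did not pass in any of these fits and lay near 0 changed sign. Pcdha12 (0.07) was -0.0056 over the libraries of the block, with and without it, and -0.073 within numbers 4 and above. Pcdhac1 (-0.03) was 0.0096 with the covariate and 0.107 within numbers 4 and above. Pcdhgb2 (-0.04) was 0.162 over the block's libraries, with and without it, 0.013 with the covariate and 0.278 within numbers 1 to 3. Pcdhgc4 (-0.03) was 0.0015 over the block's libraries, with and without it, and 0.087 within numbers 1 to 3. Without single libraries, log2 fold changes ran from -0.19 to 0.33 for Pcdha8, -0.050 to 0.17 for Pcdha12, -0.12 to 0.037 for Pcdhac1, -0.13 to 0.067 for Pcdhgb2 and -0.076 to 0.071 for Pcdhgc4. Called genes of the lists, higher and lower together, moved as follows. Of all genes, 0.235% were higher and 0.0118% lower with the block, and 2.4% and 1.14% without it in the same libraries. The shares were 12.2% and 11.6% with the covariate, and 12.1% and 12.0% with DESeq2. Within numbers 1 to 3 they were 3.46% and 2.49%, and within 4 and above 7.27% and 7.91%. Without single libraries they ran from 7.53 to 9.23% and from 6.91 to 9.99%. No share was counted at other thresholds. Promoter choice regulators, 6 called, gave 0 with the block, 3 without it in the same libraries and 3 at a threshold of 0.01. Non-clustered protocadherins, 5 called, gave 1, 1 and 1 in the same order, 1 within numbers 1 to 3, 3 within 4 and above and 2 to 5 without single libraries. Downstream partners, 5 called, gave 0, 1 and 3, 9 with the covariate, 3 within numbers 1 to 3 and 8 at a threshold of 0.1. Proteolytic processing, 1 called, gave 0, 0 and 0, 2 with DESeq2, 0 within numbers 1 to 3, 2 at a threshold of 0.1 and 0 to 1 without single libraries. Neighbouring genes, 6 called, gave 0, 1 and 2, 0 within numbers 1 to 3, 2 within 4 and above and 3 to 5 without single libraries. The causes were not tested.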
